A study of Mus musculus with 23 samples.

Results

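Dppa4 and its neighbour Dppa2 lie side by side on mouse chromosome 16 and were examined together as a locus of pluripotent cells. The members are the 8 of 173430 restriction fragments that overlap the interval from just before the Dppa4 start to past the Dppa2 end. The locus was chosen by its read counts in muscle lineage samples against embryonic stem cells in earlier results of these data, so the values against stem cells are given as a description, with no test. Dppa4 and Dppa2 encode nuclear proteins with a SAP DNA-binding domain that pair with each other and sit at GC-rich promoters. They are known for their expression in pluripotent cells, the early embryo and the germ line, where they help switch on genes of the early embryo, and for being silent with DNA methylation in somatic tissues. Expression was not analysed here.

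The libraries were made by AIMS-seq, a methylation assay built on the site CCCGGG. SmaI first cuts unmethylated sites and leaves blunt ends, and XmaI then cuts the methylated sites left over and leaves cohesive ends. Adaptors join the cohesive ends alone, so a fragment is amplified from molecules methylated at the site on each of its ends. A read count is therefore not a percentage of methylation, and it also depends on fragment length through PCR. Values are raw reads or CPM (reads scaled to a library total of 1000000), and the 23 libraries held 6237851 to 14696855 reads. PCR reads carry no molecular identifiers here, so intervals cover counting error only.

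The 9 groups were as follows. Whole skeletal muscle of male mice gave 3 libraries, of which muscle 1 and muscle 2 were of mixed 129Sv/C57BL/6J background and muscle 3 was C57BL/6J. Primary myoblasts from male C57BL/6J mice, grown as cultures 21, 27 and 26 with bFGF and sampled at passage 8 to 10, gave 3 libraries. The same cultures were sampled after 1, 2 and 4 days in differentiation medium with horse serum, as myotubes. Passage 0 cells of cultures 26 and 27 gave 2 libraries. Muscle precursor cells of male C57BL/6J mice that were never cultured gave 1 library from muscle 3 days after cardiotoxin (CTX) injury and 1 from uninjured muscle. The 4 libraries of embryonic stem cells (ESC) stand for 3 lines. These are CGR8 (129Sv, male), which has a technical repeat, RD1 (129X1/SvJ, male) and E14Tg2 (129/Ola), and the 2 CGR8 libraries were summed, so that n = 3 lines. Strain and cell type change together between the cultures and ESC, and their parts cannot be told apart. Muscle 1 and muscle 2 are also of another background than the cultures. The labels do not say how many animals stand behind the muscle libraries or the cultures, so p-values measure the spread between these libraries. Whole muscle holds other cell types than muscle fibres, and methylation in more cells and more methylation per cell cannot be told apart.

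Of the 8 fragments, 3 were under 2000 bp and 5 were between 9913 and 160222 bp long. The 3 short ones follow one another from 310 to 957 bp after the Dppa4 start, inside intron 1, which runs from the end of exon 1 (mm9 chromosome 16, 48283848 to 48283954) to exon 2 at 48287991. The 84 and 528 bp fragments count as promoter fragments in a window that reaches 500 bp past the start, but they hold no exon and lie downstream of the start. The start itself and exon 1 lie in a fragment of 26617 bp. None of the 3 overlaps a CpG island in the deposited annotation, and the 528 bp fragment has 5 CpG, which is 9.47 per kb. That density is at the 16.8th percentile of the 27763 fragments from 200 bp up to 2000 bp (median 21.1 per kb) and at the 3.64th percentile of the 9708 of these at promoters (median 59.8 per kb). The deposited annotation names a B1_Mur3 element, a short interspersed repeat, for both the 528 bp and the 36 bp fragment. The 24 bases at each end of the 3 fragments occur once each in mm9.

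The sequences are shown because reads exist only where both end sites of a fragment are methylated, and neighbouring fragments share a site. They are mm9, plus strand, 5′ to 3′, and capitals mark the CCCGGG sites. The 84 bp fragment is shown whole (chr16:48284155-48284244), the 528 bp fragment by the first 300 bases from its left site (chr16:48284239-48284538) and the 36 bp fragment whole (chr16:48284767-48284808).
84 bp fragment: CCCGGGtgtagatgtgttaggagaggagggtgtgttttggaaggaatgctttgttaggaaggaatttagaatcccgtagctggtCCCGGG
528 bp fragment, first 300 bases: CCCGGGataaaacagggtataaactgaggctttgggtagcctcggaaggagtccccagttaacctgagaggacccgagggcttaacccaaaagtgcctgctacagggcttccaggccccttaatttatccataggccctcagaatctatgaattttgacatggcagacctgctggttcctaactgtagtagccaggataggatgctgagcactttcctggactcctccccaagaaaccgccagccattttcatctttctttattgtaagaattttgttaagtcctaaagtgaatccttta
36 bp fragment: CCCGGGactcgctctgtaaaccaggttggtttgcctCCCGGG
The right site of the 84 bp fragment is the left site of the 528 bp fragment, and the right site of the 528 bp fragment is the left site of the 36 bp fragment. The 3 fragments are therefore not independent readings of the locus.

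**Figure D1:**
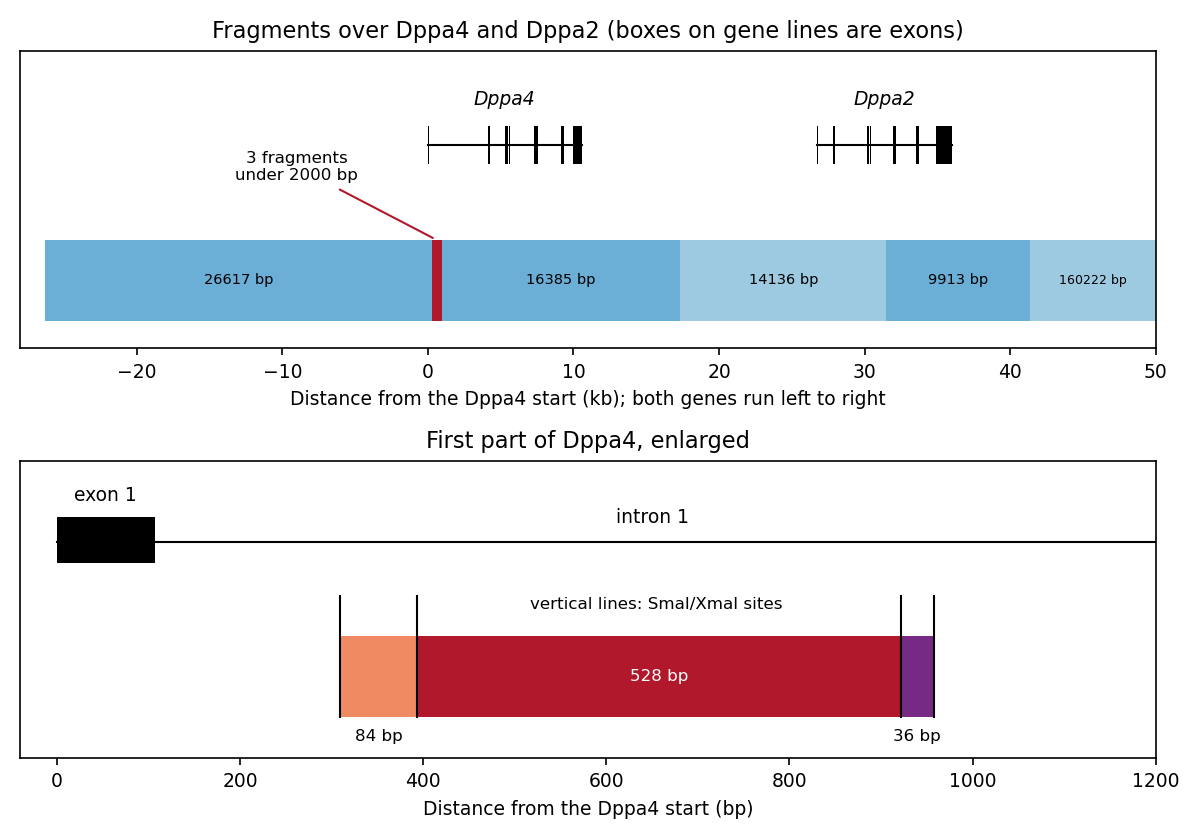
Fragments (boxes) and gene models of Dppa4 and Dppa2 by distance from the Dppa4 start, in kb above and in bp below. The 84, 528 and 36 bp fragments lie between 310 and 957 bp after the start, in intron 1, while Dppa2 lies in fragments of 14136 and 9913 bp.

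The 528 bp fragment carried most reads of the locus in every group, and its level separated every muscle lineage library from every ESC library. It had 7523, 3830 and 4103 reads in muscle 1, 2 and 3, which is 695.9, 427.0 and 408.4 CPM. Myoblasts of cultures 21, 27 and 26 had 2534, 2330 and 1491 reads, or 229.5, 240.9 and 194.0 CPM. The 2 CGR8 libraries had 22 and 20 reads, RD1 had 17 and E14Tg2 had 4, so that the ESC lines averaged 1.29 ± 0.706 CPM (SD, n = 3). No library of another group came within reach of ESC, the lowest being the uncultured cells of uninjured muscle with 757 reads at 121.4 CPM.

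Muscle had the highest mean level of the 528 bp fragment, 510.4 ± 160.9 CPM, and its lowest library lay above the highest of day 2 myotubes (382.5 CPM). Myoblasts stood at 221.5 ± 24.4 CPM, and myotubes at 246.5 ± 43.5 CPM on day 1, 326.5 ± 48.9 CPM on day 2 and 249.4 ± 60.0 CPM on day 4 (SD, n = 3 each). Passage 0 cells had 233.3 ± 130.2 CPM (SD, n = 2). Uncultured cells had 147.2 CPM from injured muscle and 121.4 CPM from uninjured muscle, with 1 library each, and ESC were lowest. By mean, the groups in between ran, from high to low, from day 2 to day 4 and day 1 myotubes, passage 0 cells and myoblasts, and each of these overlapped its neighbour in that order. The 3 myoblast libraries lay above both libraries of uncultured cells. All fragments of 450 to 600 bp together had 246700 to 252300 CPM in the muscle libraries. Their highest value elsewhere was 243500 CPM, in day 2 myotubes of culture 27. How many single fragments set muscle apart from all other libraries was not counted.

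**Figure D2:**
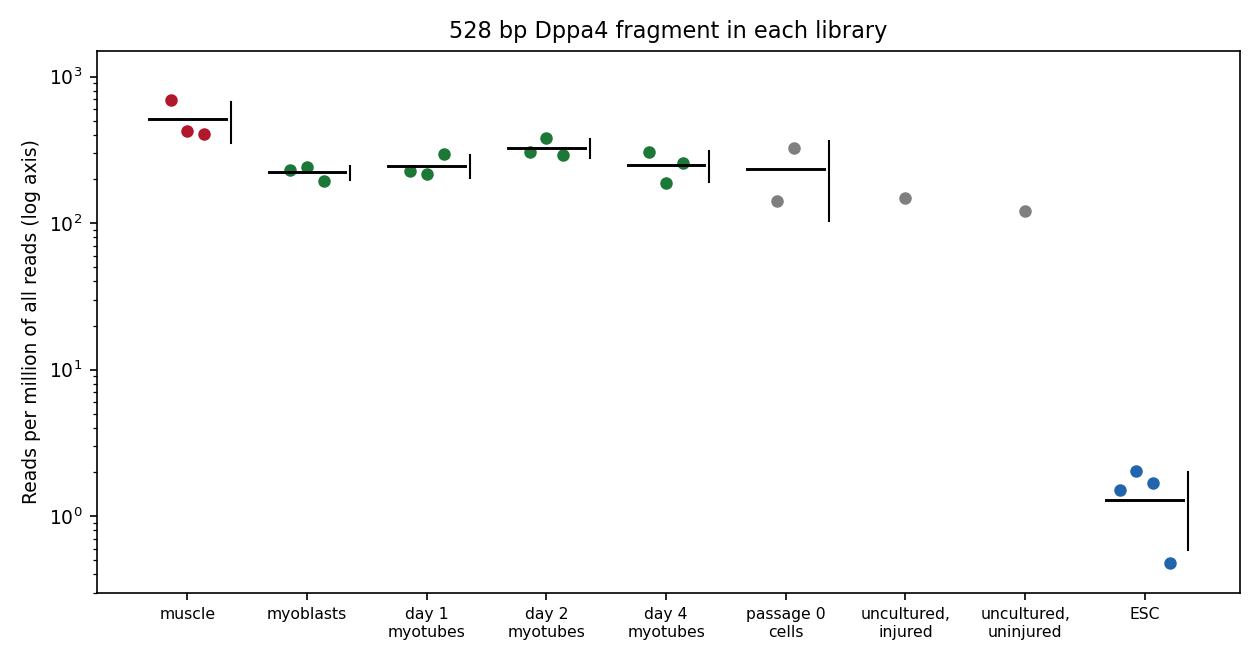
Level in CPM of the 528 bp fragment in each library (points, log axis), with the group mean (line) and SD (bar beside it); ESC points are the 4 libraries, and the ESC mean is over 3 lines. Muscle libraries sit between 408.4 and 695.9, the cultures between 141.3 and 382.5, and ESC libraries between 0.478 and 2.04.

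As a ratio of pooled reads over all libraries of a group, scaled to their totals, the 528 bp fragment was 353.4 times as frequent in muscle as in ESC (95% interval 276.0 to 460.1). The ratio was 152.6 (119.1 to 198.8) for myoblasts, 168.4 (131.5 to 219.3) for day 4 myotubes and 82.8 (64.0 to 108.8) for uncultured cells of uninjured muscle. These exact intervals rest on 63 ESC reads in all. The fitted log2 fold changes were 9.36 ± 0.70 for muscle, 8.18 ± 0.95 for day 4 myotubes and 7.54 ± 0.71 for myoblasts, each over ESC (± SE). These fits used TMM scaling, while the ratios were scaled to library totals. With library totals the fitted values were 8.54 for muscle, 7.54 for day 4 myotubes and 7.36 for myoblasts. The 3 comparisons share the ESC lines, and they chose the locus.

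The 84 bp fragment was far rarer, as fragments of its length were in every library. It had 205, 196 and 105 reads in muscle 1, 2 and 3, against 19, 22 and 18 in myoblasts of cultures 21, 27 and 26. ESC had 0 and 1 reads in the CGR8 libraries, 0 in RD1 and 1 in E14Tg2. The means were 17.1 ± 5.93 CPM in muscle, 2.60 ± 0.730 CPM in day 4 myotubes and 2.11 ± 0.341 CPM in myoblasts (SD, n = 3 each). The muscle range, 10.5 to 21.9 CPM, did not overlap any other group, all of which lay at or below 4.32 CPM. Over ESC, with 2 reads, the ratio was 364.4 for muscle (95% interval 100.4 to 3017) and 44.6 for myoblasts (11.8 to 377.1). All fragments of 70 to 100 bp together also set muscle apart, at 1029 to 1186 CPM. Their highest value elsewhere was 642.6 CPM, in day 4 myotubes of culture 27.

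The 36 bp fragment, which also carries the B1 annotation, had 34, 23 and 24 reads in muscle 1, 2 and 3. Myoblasts of cultures 21, 27 and 26 had 9, 8 and 14. ESC gave 1 read over all 4 libraries. Its level was 2.70 ± 0.396 CPM in muscle and 1.16 ± 0.578 CPM in myoblasts (SD, n = 3 each), and the muscle libraries lay above those of every other group. All fragments of 24 to 48 bp together had 531.5 to 625.2 CPM in muscle, and up to 539.9 CPM elsewhere (day 4 myotubes of culture 27). Over the 19 libraries other than ESC, log2(CPM + 1) of the 84 bp fragment correlated with that of the 528 bp fragment at Pearson r = 0.76, and that of the 36 bp fragment at r = 0.56, given as a description of fragments that share a site and their libraries.

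**Figure D3:**
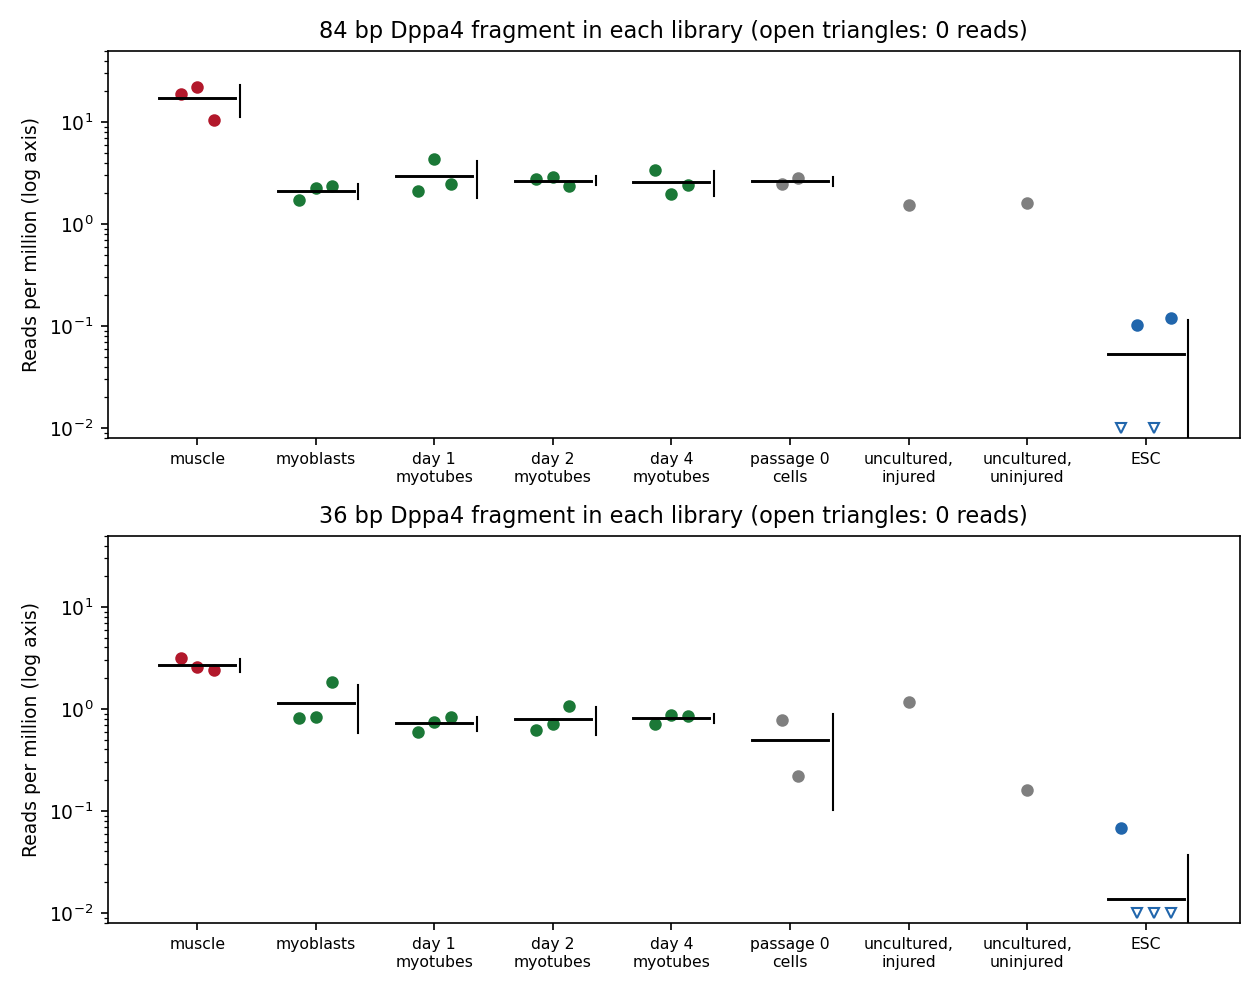
Levels in CPM of the 84 bp (above) and 36 bp (below) fragments in each library on a log axis, with group means (lines) and SD (bars, ending at the lower edge where the mean less the SD is below it); open triangles mark libraries with 0 reads. The 3 muscle libraries lie between 10.5 and 21.9 for the 84 bp fragment and between 2.39 and 3.15 for the 36 bp fragment, above all other libraries.

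Muscle was compared with myoblasts, that is, mature tissue with the dividing precursors grown from muscle. The 528 bp fragment rose in muscle by 1.74 ± 0.46 on the log2 scale (± SE, edgeR adjusted p = 0.0227), and the 84 bp fragment by 3.61 ± 0.61 (adjusted p = 0.0120). The 36 bp fragment was higher by 1.77 ± 0.62 and missed the threshold of 0.05 (adjusted p = 0.0552). DESeq2 gave it an adjusted p of 0.0295, and edgeR with all groups in 1 fit gave it 0.0471. Of the 8 members, 3 had enough reads to be tested and 2 were called higher, where 13.7% of all 20274 fragments tested were called higher and 17.4% lower, 31.1% in all. The median of all fragments was -0.13. With library totals as scaling, that median moved to -0.67 and the 528 bp fragment to 1.19 (adjusted p = 0.0437), and 23.5% of all called fragments were higher in muscle, against 44.0% with TMM scaling. The C57BL/6J library, muscle 3, of the same strain as the myoblasts, had 408.4, 10.45 and 2.39 CPM of the 528, 84 and 36 bp fragments. Each value was the lowest of the 3 muscle libraries and lay above all 3 myoblast libraries. The part of strain in the difference was not tested. The call of the 528 bp fragment rests on single libraries: its adjusted p was 0.126 without muscle 1, 0.0727 without muscle 2, and 0.0639 and 0.0755 without the myoblasts of culture 27 and of culture 26. The 84 bp fragment had an adjusted p of 0.0601 without muscle 1 and 0.0587 without muscle 2, and without either of these libraries no fragment of the table was called in edgeR, with 7165 and 7725 at an unadjusted p under 0.05.

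Short fragments as a whole took more reads in muscle. All fragments of 70 to 100 bp together stood at 1100 ± 79.4 CPM in muscle and 318.9 ± 42.4 CPM in myoblasts (exact permutation p = 0.1, the smallest that 3 against 3 libraries can give, 2-sided). Fragments of 2000 bp or longer made up 1.98 to 2.60% of reads in muscle and 3.88 to 6.37% in myoblasts. When the fit was repeated on fragments of like length alone, a choice made after seeing the data, the 528 bp fragment differed by 0.69 ± 0.38 among those of 400 to 700 bp (edgeR adjusted p = 0.2). The 84 bp fragment differed by 1.27 ± 0.72 among those of 50 to 120 bp (adjusted p = 0.155), and the 36 bp fragment by 0.15 ± 0.70 among those of 24 to 48 bp (adjusted p = 0.855). The direction stayed higher in muscle for all 3, and no call was left.

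**Figure D4:**
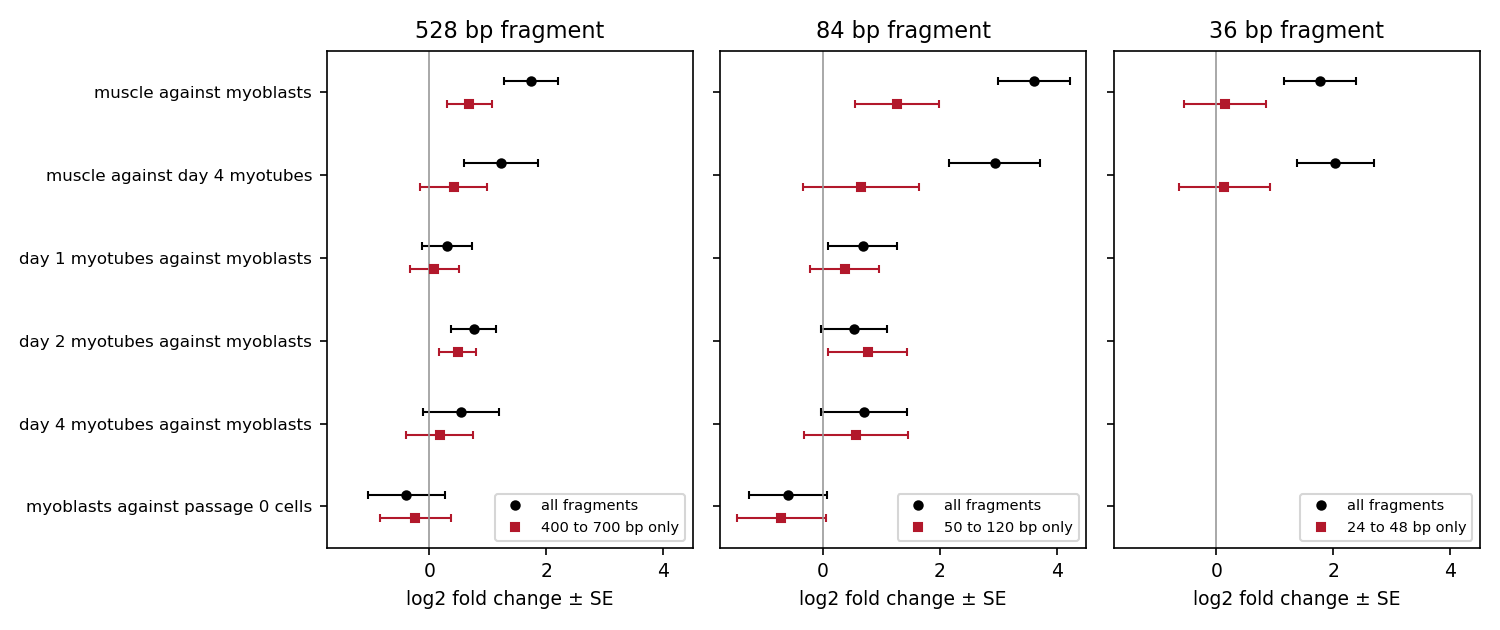
Log2 fold change ± SE of the 3 short Dppa4 fragments in the 6 tested comparisons, from the fit over all fragments (black circles) and over fragments of like length (red squares); comparisons without a point had too few reads. For muscle against myoblasts the 84 bp fragment lies at 3.61 in the full fit and at 1.27 among fragments of 50 to 120 bp.

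The balance between these fragments was examined as well. Muscle had 3.47 ± 1.43 reads of the 84 bp fragment per 100 reads of the 528 bp fragment, and myoblasts had 0.967 ± 0.230 (SD, n = 3 each, exact permutation p = 0.1, the smallest possible, 2-sided). Over all fragments of 70 to 100 bp and of 450 to 600 bp, the same ratio was 0.441 ± 0.0362 in muscle and 0.156 ± 0.0204 in myoblasts. Divided by this background, the ratio at Dppa4 was 7.74 ± 2.54 in muscle and 6.20 ± 1.18 in myoblasts (exact permutation p = 0.5, 2-sided), so the groups overlapped. In every library of both groups the ratio at Dppa4 was over 5 times that of all fragments. This did not hold in all other groups. Day 4 myotubes of cultures 21, 27 and 26 had 4.91, 3.6 and 9.67 times, and uncultured cells had 4.54 (uninjured) and 4.26 (injured).

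**Figure D5:**
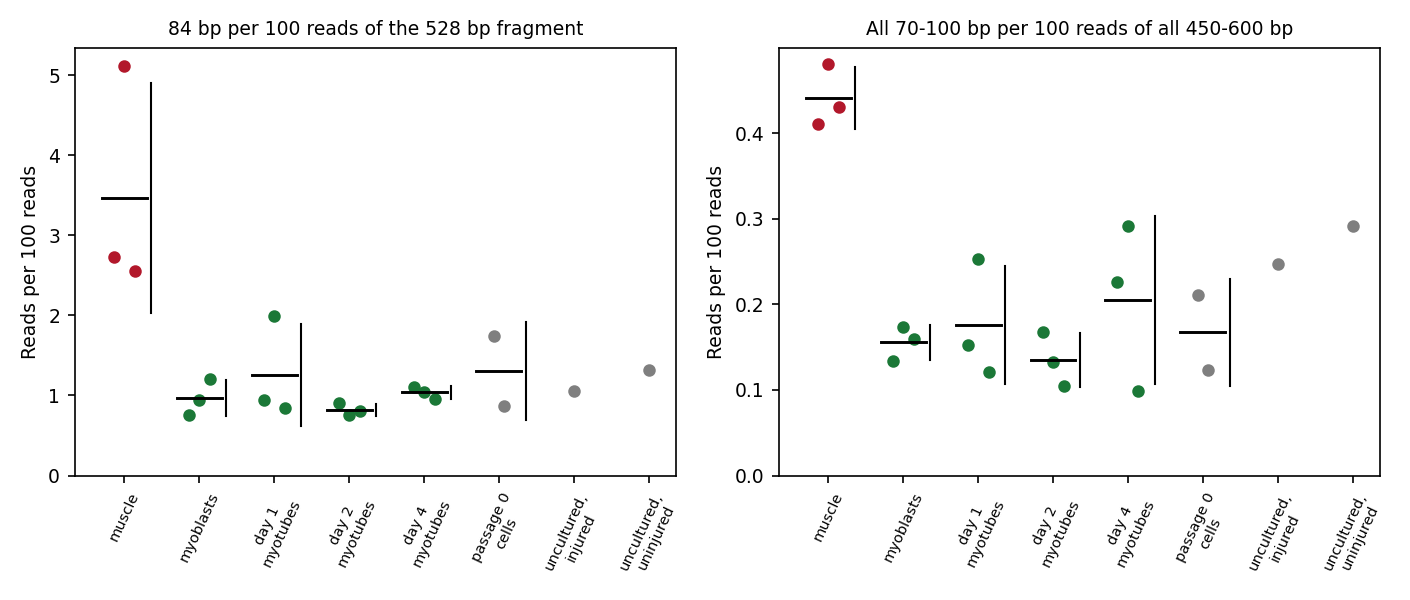
Reads of the 84 bp fragment per 100 reads of the 528 bp fragment (left), and of all fragments of 70 to 100 bp per 100 reads of all fragments of 450 to 600 bp (right), by library, with group mean (line) and SD (bar). ESC, with 63 reads of the 528 bp fragment and 2 of the 84 bp fragment, are not plotted; of the groups shown, muscle has the highest mean in both, at a mean of 3.47 on the left and 0.441 on the right.

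Muscle was also compared with day 4 myotubes, the most differentiated cells in culture. The 528 bp fragment had 695.9, 427.0 and 408.4 CPM in muscle 1, 2 and 3. Day 4 myotubes of cultures 21, 27 and 26 had 306.2, 186.6 and 255.4 CPM. The ranges did not overlap, nor did those of all fragments of 450 to 600 bp together. For the 528 bp fragment the difference of 1.23 ± 0.63 on the log2 scale did not pass the test (edgeR adjusted p = 0.257). Nor did 2.94 ± 0.78 for the 84 bp fragment (adjusted p = 0.138) or 2.03 ± 0.66 for the 36 bp fragment (adjusted p = 0.146). No fragment of the table passed in edgeR (0% of 19353), with 4613 at an unadjusted p under 0.05, while DESeq2 called 2231. DESeq2 gave the 84 bp fragment an adjusted p of 0.0119, and leaving out the day 4 myotubes of culture 21 gave it 0.0213 in edgeR, with 2390 fragments called. All groups in 1 edgeR fit gave the 84 bp fragment 0.0263, with 1933 fragments called.

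Differentiation in culture was followed in 3 cultures at 4 times. In culture 21 the 528 bp fragment had 229.5, 226.3, 304.9 and 306.2 CPM in myoblasts and after 1, 2 and 4 days. Culture 27 had 240.9, 216.8, 382.5 and 186.6 CPM, and culture 26 had 194.0, 296.5, 292.2 and 255.4 CPM. Day 2 was above the myoblasts in 3 of 3 cultures, by 0.41, 0.67 and 0.59 on the log2 scale in cultures 21, 27 and 26, while day 1 was above in 1 culture and day 4 in 2. None of this passed the test: the log2 fold changes over myoblasts were 0.30 ± 0.43 at day 1, 0.76 ± 0.38 at day 2 and 0.54 ± 0.65 at day 4 (edgeR adjusted p at or above 0.9999 for each). The 84 bp fragment had 1.72 to 2.34 CPM in myoblasts and 1.96 to 4.32 CPM over the 9 myotube libraries, and the ranges overlapped. In these comparisons 0% of the fragments were called in edgeR at each day, with 6, 64 and 83 at an unadjusted p under 0.05 at day 1, 2 and 4, and DESeq2 called 0 at each. These fits did not pair the libraries by culture, although those of the same culture number deviated together. With culture as a block, more fragments had an unadjusted p under 0.05 at each day. Then 39 fragments (0.174%) were called at day 4, and none at day 1 or day 2. The 528 bp fragment differed by 0.33 ± 0.30, 0.705 ± 0.356 and 0.38 ± 0.42 at day 1, 2 and 4. Neither Dppa4 fragment was called (edgeR adjusted p = 0.906 at day 2 and 0.9995 at day 4 for the 528 bp fragment).

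Myoblasts at passage 8 to 10 were set against passage 0 cells. The 528 bp fragment had 240.9 CPM in myoblasts and 325.4 CPM in passage 0 cells of culture 27, and 194.0 CPM in myoblasts and 141.3 CPM in passage 0 cells of culture 26. The cultures went opposite ways, and the difference of -0.39 ± 0.66 did not pass the test (edgeR adjusted p = 0.978). Without the passage 0 cells of culture 27 the value was 0.68. No fragment of the table passed in edgeR (0% of 23419), with 665 at an unadjusted p under 0.05, and DESeq2 called 3, while with culture as a block 4.25% did, and the 528 bp fragment did not (adjusted p = 0.875). The authors' deposited table, whose fold change runs the other way, gives 0.07 for passage 0 cells over myoblasts on the log2 scale with 1 added.

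For the 3 short fragments, the authors' deposited table gives log2 ratios of mean scaled values with 1 added. For muscle over myoblasts the authors' deposited table has 1.16 for the 528 bp fragment, with an adjusted p of 0.0112 from DESeq with pooled dispersion and 1.06e-10 with dispersion per condition. For muscle over day 4 myotubes the authors' deposited table has 1.01, with 0.0653 and 0.00393, so there the call depends on the dispersion. In the same comparison the authors' deposited table has 2.62 for the 84 bp fragment, with 5.03e-05 and 2.64e-18, and 1.61 for the 36 bp fragment, with 0.00031 and 8.88e-05. Both pass the threshold in the authors' deposited table, fitted with DESeq, and neither did in the main edgeR fit above.

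The 5 long fragments had few reads. The fragment of 26617 bp with the Dppa4 start had at most 3 reads in any library and 28 in all, and the fragment of 16385 bp with the other Dppa4 exons had at most 4. The fragment of 160222 bp, which holds exons 1 to 9 of Morc1, had at most 19 in any library and 113 in all. Of these, 31 were in ESC and 23 in muscle. Dppa2 is covered only by a fragment of 14136 bp, with its start and exons 1 to 4, and one of 9913 bp, with exons 5 to 7. Together these held 0 reads in muscle, 2 in day 4 myotubes, 4 in myoblasts and 17 in ESC. Most of the ESC reads came from 1 line: the CGR8 libraries held 9 and 4, and RD1 and E14Tg2 held 2 each. Pooled over the 3 lines they were 0.396 CPM. A count of 0 allows up to 0.101 CPM over the 3 muscle libraries (3 reads), for counting error only. Muscle libraries had 1.98 to 2.60% of their reads in fragments of 2000 bp or longer, and ESC libraries had 10.0 to 12.1%, and the part of this in the Dppa2 reads was not tested. The Dppa2 counts are given as a description of few reads from long fragments.

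Neighbouring fragments carried few reads. Of 47 fragments within 500 kb on each side, 21 were under 2000 bp and 5 of these had 100 or more reads in any library, at most 438. One of them, a 958 bp fragment outside annotated genes (mm9 chromosome 16, 47913517 to 47914474), was also low in ESC, with 5.83 ± 4.27 CPM in muscle, 11.0 ± 2.85 CPM in myoblasts and 0.0331 ± 0.0573 CPM in ESC lines (SD, n = 3 each). Of the 7 neighbours tested between muscle and ESC, 3 were called in edgeR, each higher in muscle, where 24.4% of all fragments were called higher and 34.6% lower. These are the 958 bp fragment (log2 fold change 7.99, adjusted p = 0.000128) and 2 of 156 bp that lie among other fragments of 156 and 52 bp, whose likeness in sequence was not tested. The 2 had 10.2 ± 0.591 CPM in muscle and 4.41 ± 1.84 CPM in ESC lines (edgeR log2 fold change 2.08, adjusted p = 0.00281), and 5.55 ± 0.917 CPM in muscle and 3.07 ± 0.684 CPM in ESC lines (1.70, adjusted p = 0.00849). A 1527 bp fragment at Trat1, a T cell receptor adaptor gene, had 12.9 ± 0.0842 CPM in muscle and 34.3 ± 4.05 CPM in ESC lines. It did not pass the test (edgeR adjusted p = 0.16). The CPM here are scaled to library totals, while the fits used TMM scaling. In muscle against ESC the median log2 fold change of all fragments was -0.34 with TMM and -1.17 with library totals. Fold changes and calls of the neighbours with library totals were not examined, so whether the calls hold with that scaling is not known. For the 6 neighbours tested between muscle and myoblasts, the edgeR adjusted p lay between 0.234 and 0.988.

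Other genes of pluripotency were read from a list of 35 genes, 34 of them with a fragment, which was drawn up with earlier results of these data known. In muscle against myoblasts 6 of 17 tested fragments, from 11 genes, rose and 4 fell, where 13.7% and 17.4% of all fragments did. The median log2 fold change of the 17 was 0.69, against -0.13 over all fragments. The lists were not examined in fits on fragments of like length, so the part of length in their calls was not tested. Lin28a and Lin28b, RNA-binding proteins that block let-7 maturation, each had a fragment that rose, by 3.63 ± 0.84 in Lin28a (edgeR adjusted p = 0.0157) and 3.73 ± 0.86 in Lin28b (adjusted p = 0.0156). Nr5a2, an orphan nuclear receptor, had one of 978 bp that rose by 2.27 ± 0.46 (adjusted p = 0.0128) and one of 1652 bp that fell by 2.70 ± 0.59 (adjusted p = 0.0139). Tet1, which oxidises methylated cytosine, had one of 1362 bp that fell by 2.36 ± 0.53 (adjusted p = 0.0151). Against ESC, 10 of 21 list fragments rose in muscle and 6 fell, where 24.4% and 34.6% of all fragments did. In myoblasts 4 of 21 rose and 3 fell against ESC, where 8.22% and 11.7% of all did. From a list of 33 germ line and early embryo genes, 30 with a fragment, 1 of 15 tested fragments rose in muscle against myoblasts and 4 fell, where 13.7% and 17.4% of all did. That 1, of 644 bp at Dmrtb1, a testis transcription factor, rose by 3.24 ± 0.79 (adjusted p = 0.0184). One of 188 bp at Mov10l1, a helicase of the piRNA pathway, fell by 4.13 ± 0.77 (adjusted p = 0.0121).

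The fragments most like the 528 bp fragment were sought among 1197 promoter fragments of named genes by Pearson r of log2(CPM + 1) over 22 libraries. They belonged to Kif21b (a kinesin), Bcat2 (a branched-chain amino acid transaminase), Gpx2 (a glutathione peroxidase), Slc7a3 (a cationic amino acid transporter), Padi1 (a peptidylarginine deiminase) and Plekha4, with r from 0.93 to 0.95. The Kif21b fragment had 288.9 CPM in muscle, 192.0 CPM in myoblasts and 0.15 CPM in ESC, and the Bcat2 fragment had 115.2, 222.0 and 0.230 CPM in the same groups. Over the 19 libraries other than ESC their r fell between -0.50 and 0.17, so the likeness rests on the ESC lines.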

How the data were processed

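The 23 mouse libraries, in 9 groups, were read by AIMS-seq for DNA methylation. Reads came from an Illumina GA2 and were mapped to mm9, per the labels' protocols, and Bowtie 0.11.3 and DESeq are named in the submitters' processing notes. The deposited table holds raw read counts per fragment between consecutive CCCGGG sites, per the file headers; 100% of fragment starts lie at a site in mm9. The authors' comparison tables hold log2 ratios and adjusted p-values from DESeq, as deposited. Another 184 columns of per-sample values were not used.

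All fragments were fitted with edgeR 4.0.16 (quasi-likelihood test, 2-sided, TMM scaling, a filterByExpr minimum of 10 reads, adjusted p by Benjamini-Hochberg over all fragments tested, threshold 0.05) on the 2 groups compared, and the rows of the locus were read from the fit. Alternatives were DESeq2 1.42.0, library totals, no low-count filter, fragments under 2000 bp, all groups in 1 fit, a replicate block, each replicate left out and, added later, fragments of like length. The SE of an edgeR fold change was taken as its absolute value over the square root of the F statistic of its test. The fit was tested on simulated counts. It missed most of the changes set into day 4 myotubes against myoblasts, and most of the smaller ones in muscle against myoblasts. Samples of the same culture number deviated together in day 1, 2 and 4 myotubes against myoblasts (r from 0.40 to 0.88), so the labels' culture numbers pair them. Genes came from GENCODE M1 on mm9, and sequences from the mm9 genome. R 4.3.3, Python 3.11.15, pandas 2.3.3 and scipy 1.17.1 were used.

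The members and lists were chosen with earlier results of these data known. The text names all fragments of the locus, the 4 neighbours within 500 kb with the smallest adjusted p in muscle against ESC, per list and comparison up to 3 called fragments under 2000 bp per direction by adjusted p, and the 6 promoter fragments (from 2000 bp before to 500 bp after a start, mean of 10 CPM or more) with the highest r with the 528 bp fragment. Fewer were named where space was short.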

Additional observations from a re-analysis of the deposited data

How the results depend on the processing

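Values are log2 fold changes of the 528 bp fragment. In muscle against myoblasts, the replicate block gave 1.69 (adjusted p = 0.0605) and fragments of 400 to 700 bp alone gave 0.69. Leaving out 1 replicate gave 1.54 to 2.09 there, 0.89 to 1.92 in muscle against day 4 myotubes, 0.16 to 0.57 at day 1, 0.59 to 1.15 at day 2 and -0.10 to 0.85 at day 4 against myoblasts, the lowest being without day 4 replicate 1. In myoblasts against passage 0 cells it gave -1.02 to 0.68. Against ESC it gave 7.11 to 8.20 in myoblasts, 7.64 to 8.69 in day 4 myotubes and 9.04 to 9.93 in muscle. With library totals the values against ESC were 7.54 in day 4 myotubes and 8.54 in muscle, and fragments of 400 to 700 bp gave 8.37 in muscle. For the 84 bp fragment, leaving out 1 replicate gave -0.025 to 1.02 in day 4 myotubes against myoblasts, the lowest being without day 4 replicate 1. The cause of these shifts was not tested.

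The replicate block changed no other call of a locus fragment. It moved the fragments called from 6309 to 1431 in muscle against myoblasts, where numbers alone are shared. Calls went from 0 to 39 in day 4 myotubes against myoblasts (0.174%), where the cultures are shared. They went from 0 to 996 in myoblasts against passage 0 cells (4.25%), where cultures 26 and 27 are shared and culture 21 has no partner. Fragments under 2000 bp alone gave 4067 calls in muscle against myoblasts, and leaving out 1 replicate gave 0 to 8107 there and 0 to 2390 in muscle against day 4 myotubes. In muscle against day 4 myotubes, all groups in 1 fit gave 1933 calls and no low-count filter gave 522. No low-count filter also gave 31, 4 and 107 calls at day 1, 2 and 4 against myoblasts and 51 in myoblasts against passage 0 cells. The long fragments of the locus, among them those with Dppa2, held few reads, and the cause was not tested.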
